A study of Mus musculus with 3 samples.

Results

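The genes of hepatic glucose handling described here, 8 in number, were read across 3 RNA samples: Pck1, G6pc, Fbp1 and Pcx of gluconeogenesis, the pyruvate kinase gene Pklr, the glucose transporter gene Slc2a2, and Gys2 and Pygl of glycogen turnover. They were listed by name, with earlier results of these data known. Pck1 and G6pc were singled out beforehand because they differed in how near they came to the liver level. The listed genes are 8 of the 20546 genes that could be named on the array. All 8 were found, by 9 probes in all: 7 genes had 1 probe and Gys2 had 2. RNA came from female mice and was hybridised to Agilent arrays with 1 dye, Cy3, 1 array per group. The SiO2 spleen had received SiO2 (silicon dioxide) alone. The SiO2-3TF-3C spleen had received SiO2 together with a treatment named 3TF-3C, which the labels do not spell out; the series design calls these spleens hepatized. Both kinds of spleen were taken on day 82, and the design text says that 5 samples were pooled within each group. Normal liver served as the positive control. Its day and any pooling of livers are not given in the labels, nor are the strain, the age, the route of treatment or the feeding state of any group. The comparison of the spleen samples asks which transcripts differed after 3TF-3C, and liver gives the level to set them against.

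As background, the liver makes glucose during fasting from lactate, amino acids and glycerol by gluconeogenesis, and stores glucose as glycogen after a meal. Pyruvate carboxylase and phosphoenolpyruvate carboxykinase together reverse the step that pyruvate kinase drives in glycolysis, fructose bisphosphatase reverses that of phosphofructokinase, and glucose phosphatase releases free glucose at the end of both gluconeogenesis and glycogen breakdown. Several of these enzymes are liver forms of small families, whose other members serve muscle, brain or blood cells.

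Levels are given as log2 processed signal relative to the 75th percentile of the same array, so that 0 is the 75th percentile. A level belongs to its own probe, so levels were compared between samples and not from gene to gene, and the summed level of a marker list adds probes of unlike brightness and can rest on 1 gene. Errors are technical errors from the scanner software's own signal error. With 1 array per group there was no replicate, no test was possible, and the spread between animals is unknown. A 2-fold size was used to describe genes, and a gene that was well above background on only 1 side of a comparison was given a bound. Between 77.2% and 81.3% of probes were well above background, and no spot was saturated. The tissue labels were checked against marker genes: in 39 of 40 hepatocyte genes liver exceeded the SiO2 spleen by 2-fold or more, with a median difference of 9.59. Of 13 B and T cell genes 9 were lower by 2-fold or more in liver, yet all 13 were still measured above background in liver, with a median difference of -1.33.

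Of the 8 genes 6 were higher by 2-fold or more after 3TF-3C, that is, in the SiO2-3TF-3C spleen relative to the SiO2 spleen, as were 5.24% of all 17628 measured genes. None of the 8 was at least 2-fold lower, and the other two, Pklr and Pygl, lay within 2-fold. The median difference was 4.25 log2 over the 8 genes, 2 of them at a bound, against -0.15 over all genes. In liver all 8 genes were 2-fold or more above the SiO2 spleen, with a median of 7.82, beside 15.4% of 17344 genes and an overall median of -0.15. Set against liver, the SiO2-3TF-3C spleen was at least 2-fold lower for all 8 genes, with a median of -3.08. There 15.8% of 17202 genes were that much lower, and the overall median was -0.03. Every one of the 8 genes had its lowest level in the SiO2 spleen, an intermediate level in the SiO2-3TF-3C spleen and its highest level in liver. The samples are bulk tissue, so fewer cells of a type and less RNA per cell cannot be told apart.

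**Figure D1:**
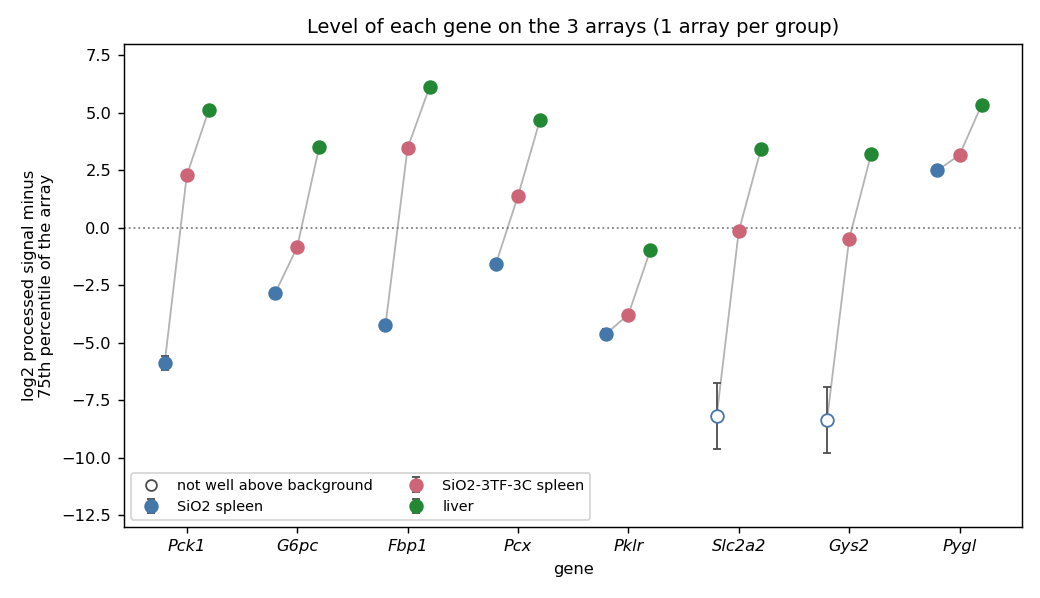
Level of each of the 8 genes (y axis, log2 processed signal relative to the array's 75th percentile) in each of the 3 samples, 1 array each. Bars through the points are technical errors of the scanner software, and open symbols mark signals not well above background. For every gene the SiO2-3TF-3C spleen lies between the SiO2 spleen and liver. Examples are Pck1, at 2.29 against 5.13 in liver, and G6pc, at -0.83 against 3.53.

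The first enzymes of gluconeogenesis, Pcx and Pck1, were both higher with 3TF-3C. Pcx, the mitochondrial pyruvate carboxylase that makes oxaloacetate, had a level of -1.57 in the SiO2 spleen, 1.39 in the SiO2-3TF-3C spleen and 4.70 in liver. Its signal was 7.74-fold higher with 3TF-3C (log2 2.95 ± 0.20, technical error) and 77.1-fold higher in liver, both over the SiO2 spleen. Liver exceeded the SiO2-3TF-3C spleen 9.97-fold, a difference of -3.32 ± 0.20 for spleen minus liver.

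Pck1, the cytosolic phosphoenolpyruvate carboxykinase that turns oxaloacetate into phosphoenolpyruvate, had a level of -5.87 in the SiO2 spleen, 2.29 in the SiO2-3TF-3C spleen and 5.13 in liver. The levels correspond to processed intensities of 9.74, 2517 and 13685. The SiO2 spleen lay close to the lowest level called well above background on its array, -6.04, while the other samples lay far above it. The difference was 8.16 ± 0.33 with 3TF-3C (286-fold) and liver was 2050-fold above the SiO2 spleen, with a technical error of 0.33 log2. Because the SiO2 spleen was so dim, these sizes depend on how low signals are handled. With normexp correction, which here adds an offset of 50 to every signal, the log2 differences were 5.43 and 8.25. The offset exceeds the SiO2 spleen intensity of 9.74 and by itself makes these differences smaller. The SiO2-3TF-3C spleen stood 7.18-fold below liver, a difference of -2.84 ± 0.20, which is 13.9% ± 1.97 of the liver signal.

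Fbp1, the fructose bisphosphatase of liver and kidney, ran from -4.22 in the SiO2 spleen to 3.47 in the SiO2-3TF-3C spleen and 6.14 in liver. It was 207-fold higher with 3TF-3C (7.69 ± 0.22) and 1317-fold higher in liver (10.36 ± 0.22), or 6.19 and 8.95 with normexp correction. The SiO2-3TF-3C spleen was 6.37-fold below liver, by -2.67 ± 0.20.

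G6pc, the catalytic subunit of the glucose phosphatase that frees glucose for export, differed least between the spleen samples among the 4 gluconeogenic genes. Its level was -2.84 in the SiO2 spleen, -0.83 in the SiO2-3TF-3C spleen and 3.53 in liver, with intensities of 79.3, 289 and 4509. The spleen samples thus lay nearer to each other than either lay to liver, as they also did for Pklr, Pygl and, by less, Pcx. For G6pc the difference with 3TF-3C was 2.01 ± 0.21, or 4.02-fold. That of liver over the SiO2 spleen was 6.37 ± 0.21, or 82.9-fold. With normexp correction the values were 1.44 and 5.49. The SiO2-3TF-3C spleen was 20.6-fold below liver, by -4.37 ± 0.20, at 4.85% ± 0.687 of the liver signal.

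Pck1 and G6pc, an early and the last step of the same route, were singled out because they differed in how near they came to liver. The shortfall of G6pc from liver exceeded that of Pck1 by 1.52 log2 (-1.52 ± 0.29, G6pc minus Pck1), a 2.87-fold gap. It was -1.22 with normexp correction. Pcx offers a comparison at almost the same liver excess. Liver exceeded the SiO2 spleen by 6.27 for Pcx and by 6.37 for G6pc, while the SiO2-3TF-3C spleen exceeded it by 2.95 for Pcx and by 2.01 for G6pc. Both differences of a gene share the SiO2 spleen array.

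The promoters of Pck1 and G6pc are printed to show the letters next to each start, with matches to a few short motifs in capitals. Each is the stretch of 250 bases before the RefSeq start site, on the coding strand, from RefSeq on GRCm38.p6. In Pck1 (chr2:173152823-173153072, forward strand) the capitals mark, from the left, an HNF1 core site, a GATA core and a CREB core site. In G6pc (chr11:101367466-101367715, forward strand) they mark an HNF1 core site, the core of an insulin response element, a nuclear receptor core site and a TATA box.
Pck1 promoter: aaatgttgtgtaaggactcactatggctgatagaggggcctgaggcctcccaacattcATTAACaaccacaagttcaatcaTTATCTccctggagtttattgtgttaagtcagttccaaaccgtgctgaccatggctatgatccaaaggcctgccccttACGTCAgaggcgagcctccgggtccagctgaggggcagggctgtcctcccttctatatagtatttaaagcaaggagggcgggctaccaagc
G6pc promoter: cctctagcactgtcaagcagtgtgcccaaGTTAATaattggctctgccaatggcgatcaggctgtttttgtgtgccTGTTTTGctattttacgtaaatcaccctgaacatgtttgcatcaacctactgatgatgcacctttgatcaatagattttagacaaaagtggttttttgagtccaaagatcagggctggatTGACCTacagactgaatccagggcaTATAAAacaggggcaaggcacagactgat

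Short motifs were searched on both strands of windows that run from 250 bases before to 50 after the start. Windows were found for 7 of the 8 genes, 9 windows in all, and shares are given over 32851 windows of the same length. No motif overlapped another in the printed stretches. The CREB core site ACGTCA, of the class through which cyclic AMP signalling acts, occurred in 7.51% of all windows. Among the 9 windows it was in that of Pck1 alone, at position -91 from the start. Only these exact letters were searched, so other forms of the site, in the G6pc window too, would be missed. The insulin response core CAAAACA, which forkhead factors under insulin control bind, occurred in the G6pc window alone, on the reverse strand at -174, and in 6.28% of all windows. The HNF1 core site GTTAAT was in both, at -192 on the reverse strand of Pck1 and at -221 in G6pc, and in 7.10% of all windows. The nuclear receptor core site AGGTCA was in 5 of the 9 windows, those of G6pc, Pcx, Pklr, Slc2a2 and Pygl, and in 16.3% of all windows. The E-box CACGTG was in 1 of the 9, a Pcx window, and in 7.15% of all windows. The C/EBP core TTGCNNAA was in 0 of the 9 and in 10.8% of all windows. The GATA core AGATAA was in windows of Pck1, Fbp1 and Pklr and in 11.2% of all windows, and the TATA box TATAAA in those of G6pc and Pklr and in 13.6% of all windows. A match describes letters in a window and shows no binding. The lack of a match does not show that a window lacks other forms of that site.

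Pklr encodes the pyruvate kinase of liver and red cells, which runs against gluconeogenesis by turning phosphoenolpyruvate into pyruvate. Its level was -4.60 in the SiO2 spleen, -3.77 in the SiO2-3TF-3C spleen and -0.96 in liver. The spleen samples differed by 0.83 ± 0.24, or 1.77-fold, under the 2-fold rule. Liver was 12.5-fold above the SiO2 spleen (3.64 ± 0.23) and 7.04-fold above the SiO2-3TF-3C spleen (-2.82 ± 0.21, spleen minus liver). With normexp correction these 3 differences were 0.43, 2.23 and -1.80.

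Pklr is transcribed from separate starts in red cells and in liver, and the array files used here do not say which transcript its single probe reads. Both promoters are shown because they carry different letters. The upstream start is that of the red cell form (chr3:89135892-89136141, forward strand), where the capitals mark a nuclear receptor core site and a GATA core, the latter at -35. The downstream start is that of the liver form (chr3:89136373-89136622, forward strand), where they mark a TATA box at -31.
Pklr red cell promoter: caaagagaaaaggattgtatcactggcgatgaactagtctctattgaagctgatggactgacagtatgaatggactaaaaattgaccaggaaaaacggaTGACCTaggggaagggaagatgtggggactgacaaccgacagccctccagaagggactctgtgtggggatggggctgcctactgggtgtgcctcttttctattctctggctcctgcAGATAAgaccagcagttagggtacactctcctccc
Pklr liver promoter: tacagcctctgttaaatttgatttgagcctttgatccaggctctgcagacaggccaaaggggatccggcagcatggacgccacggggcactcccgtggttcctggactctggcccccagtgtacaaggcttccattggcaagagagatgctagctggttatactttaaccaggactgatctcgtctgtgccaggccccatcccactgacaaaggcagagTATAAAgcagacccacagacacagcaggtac

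Red cell genes differed between the spleen samples in the same direction as Pklr. Of 16 genes of the erythroid list 12 were higher by 2-fold or more with 3TF-3C and none was that much lower, with a median difference of 1.71. Examples were Epb42 of the red cell membrane skeleton (2.40), the Kell blood group gene Kel (2.35) and the erythroid transcription factor gene Klf1 (2.32), while Ermap (-0.07) and Hemgn (-0.35) lay within 2-fold. In liver 10 of the 16 were 2-fold or more below the SiO2 spleen, with a median of -1.30, although Pklr was highest there. Their summed level was 8285% of the 75th percentile in the SiO2 spleen, 11347% after 3TF-3C and 7011% in liver. Hemgn alone supplied 5655%, 4443% and 5865% of these sums, and without it they were 2631%, 6903% and 1146%. Their part in the Pklr difference was not tested.

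Slc2a2, the low-affinity glucose transporter GLUT2 of hepatocytes and beta cells, gave no signal well above background in the SiO2 spleen, where its level read -8.19. It was -0.15 in the SiO2-3TF-3C spleen and 3.41 in liver. The SiO2-3TF-3C spleen was at least 59.4-fold higher than the SiO2 spleen and liver at least 701-fold, with the dim side set at the lowest signal well above background. Below liver, the SiO2-3TF-3C spleen differed by -3.56 ± 0.20, or 11.8-fold.

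Gys2, the liver glycogen synthase, behaved alike on both of its probes. The brighter probe read -8.34 in the SiO2 spleen, not well above background, -0.49 in the SiO2-3TF-3C spleen and 3.23 in liver. The other probe read -7.08, also not well above background, then -1.31 and 2.47 in the same order. The SiO2-3TF-3C spleen was at least 47.0-fold higher by the brighter probe and at least 26.6-fold by the other, and liver at least 618-fold and at least 366-fold. Relative to liver the probes gave -3.72 ± 0.20 and -3.78 ± 0.20, that is, 7.60% and 7.27% of the liver signal. With normexp correction the differences from the SiO2 spleen were 3.04 and 6.38 for Gys2 and 3.25 and 6.57 for Slc2a2. Without any filter on dim signals they were 7.85 and 11.57 for Gys2 and 8.04 and 11.60 for Slc2a2.

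Pygl, the liver glycogen phosphorylase that releases glucose units from glycogen, read 2.51 in the SiO2 spleen, 3.17 in the SiO2-3TF-3C spleen and 5.35 in liver. The difference of the spleen samples was 0.66 ± 0.20, or 1.58-fold, and liver was 7.19-fold above the SiO2 spleen (2.85 ± 0.20). Set against liver, the SiO2-3TF-3C spleen was 4.54-fold lower, by -2.18 ± 0.20. Neutrophils and macrophages are known to express Pygl, and all 12 of their measured marker genes were well above background in each sample. Between the spleen samples 1 of the 12, the neutrophil granule gene Ltf (1.47), was at least 2-fold higher and the median was -0.01. In liver 8 of the 12 were at least 2-fold below the SiO2 spleen, with a median of -1.30. Their summed level was 22645%, 24066% and 12752% of the 75th percentile in the same order of samples. Their part in the Pygl level was not tested.

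As a percentage of the liver signal, the 8 genes in the SiO2-3TF-3C spleen spanned 4.85% to 22.04%, with a median of 12.0%. From nearest to liver to farthest the order was Pygl (22.04% ± 3.12), Fbp1 (15.7% ± 2.22), Pklr (14.2% ± 2.08), Pck1 (13.9% ± 1.97), Pcx (10.03% ± 1.42), Slc2a2 (8.48% ± 1.20), Gys2 (7.60% ± 1.08) and G6pc (4.85% ± 0.687). Of the neighbours in this order, Gys2 and G6pc differed by more than 2 technical errors (0.65 ± 0.29), and the others did not. Of the 28 pairs of genes 19 differed by that much. G6pc differed from all 7 other genes, but it was singled out beforehand by this same value. The 28 pairs reuse the same 8 values, and the technical error holds no spread between animals.

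The percentage of liver also contains what the SiO2 spleen already had, which matters for Pygl and Pklr. The increase over the SiO2 spleen was therefore expressed as a percentage of the increase of liver over the SiO2 spleen, on the linear scale. This measure was chosen after the values were seen. By it Fbp1 stood at 15.6% ± 2.22, Pck1 at 13.9% ± 1.97, Pygl at 9.44% ± 3.15, Pcx at 8.85% ± 1.36 and Slc2a2 at 8.45% ± 1.20. Gys2 followed at 7.57% ± 1.07, Pklr at 6.73% ± 2.07 and G6pc at 3.69% ± 0.630, and the median was 8.65%. Pygl thus came after Fbp1 and Pck1 and Pklr after Gys2, while G6pc was last by both measures. The place of Pygl is loose, given its error of 3.15 and a value of 13.8% with the deposited table.

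Genes of high liver excess give a setting for these percentages. Among 632 genes whose liver signal exceeded the SiO2 spleen 16-fold or more, a threshold chosen after the values were seen, the SiO2-3TF-3C spleen reached a median of 10.9% of the liver signal, with quartiles of 8.91% and 14.3%. G6pc was well below the lower quartile: 9 of these genes had a lower percentage and 622 a higher one. The set and the percentages share the liver array. Pck1 stood above 458 of them and below 173, inside the quartile range. That place depends on the set and the measure. Among the 2525 genes higher in liver by 2-fold or more, with a median of 29.3% and quartiles of 15.2% and 42.4%, Pck1 stood below the lower quartile, as did G6pc. By the increase over the SiO2 spleen, with quartiles of 7.44% and 12.4% in the 16-fold set, Pck1 at 13.9% stood above the upper quartile and G6pc at 3.69% below the lower one. By the percentage of liver in the 16-fold set, Fbp1 stood above 517, Pcx above 249, Slc2a2 above 117 and Gys2 above 76. With thresholds of 4-fold (1320 genes) or 64-fold (360 genes), 9 and 6 genes stood lower than G6pc, and 539 and 267 lower than Pck1. The 40 hepatocyte genes had a median of 17.8% and a range of 5.54% to 87.9%, so G6pc lay below the lowest of them by about its technical error of 0.687.

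**Figure D2:**
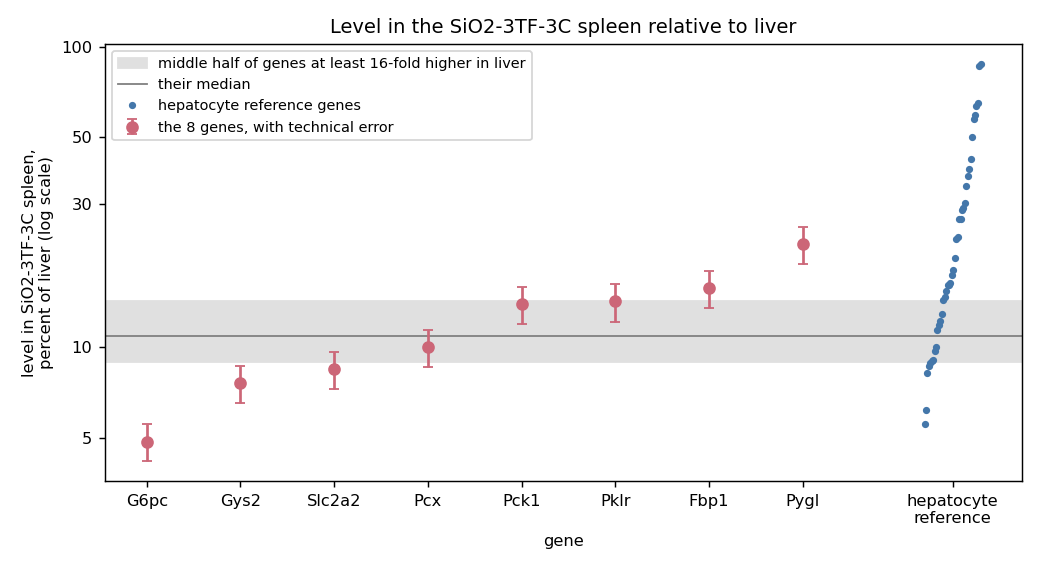
Signal of each of the 8 genes in the SiO2-3TF-3C spleen as a percentage of the liver signal (log axis), with bars for the technical error, beside the 40 hepatocyte genes as small points, 1 array each. The line and grey band give the median (10.9%) and the quartiles of the 632 genes high in liver; G6pc at 4.85% lies below the band and Pck1 at 13.9% within it. Pygl and Pklr are not among the 632 genes, since their liver signal exceeds the SiO2 spleen by 7.19-fold and 12.5-fold.

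The genes whose pair of differences from the SiO2 spleen lay nearest to that of Pck1, among 16076 genes measured on all 3 arrays, were Ces1d, Ces1c, Cyp3a59, Akr1c6 and Rgn. Their distances were 0.17, 0.21, 0.39, 0.39 and 0.42 log2 units, and they reached 16.3%, 17.0%, 16.1%, 12.6% and 11.7% of liver. For G6pc the nearest were Pax2, Lbp, Serpina11, Tex22 and Epb41l4b, at distances of 0.082, 0.11, 0.36, 0.40 and 0.45. Pax2, a transcription factor gene of kidney development, stood at 4.99% of liver and Lbp, the secreted binding protein for bacterial lipopolysaccharide, at 4.98%. Each pattern has only 3 samples behind it.

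Isoforms of the same enzyme families were compared next. The 8 liver forms compared were Pck1, G6pc, Fbp1, Pklr, Slc2a2, Gys2 and Pygl together with the phosphofructokinase gene Pfkl. Of these 5 were higher by 2-fold or more with 3TF-3C, and the median was 3.78. Of 13 paralogs that serve other tissues 11 were measured, 1 was higher by 2-fold or more, none was that much lower, and the median was -0.17. Over all measured genes 5.24% were that much higher and 1.39% that much lower. All the liver forms but Pfkl belong to the 8 genes described above. Pck2, the mitochondrial counterpart of Pck1, differed by 0.03. G6pc3, the widely expressed glucose phosphatase, differed by -0.23, and the islet form G6pc2 and the muscle form Fbp2 were not well above background on any array. Pkm, the pyruvate kinase of most other tissues, differed by -0.45, the muscle glycogen synthase Gys1 by -0.30, and the brain and muscle phosphorylases Pygb and Pygm by 0.04 and -0.17.

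The exception among the paralogs was Slc2a4, the insulin-responsive transporter GLUT4 of muscle and fat. Its level was -2.31 in the SiO2 spleen, -0.17 in the SiO2-3TF-3C spleen and -3.58 in liver. It was therefore higher by 2.14 with 3TF-3C and lower by 1.27 in liver (-1.27), whereas Slc2a2 was higher in both. The transporters Slc2a1 and Slc2a3 differed by -0.34 and -0.11 between the spleen samples. In liver 4 of the 11 paralogs were at least 2-fold below the SiO2 spleen, Pfkp (-1.82), Pkm (-1.52), Slc2a3 (-1.37) and Slc2a4, and none was that much above it. Over all measured genes 17% were that much below it and 15.4% that much above. The phosphofructokinases Pfkl, Pfkm and Pfkp differed by -0.20, 0.85 and -0.34 between the spleen samples.

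**Figure D3:**
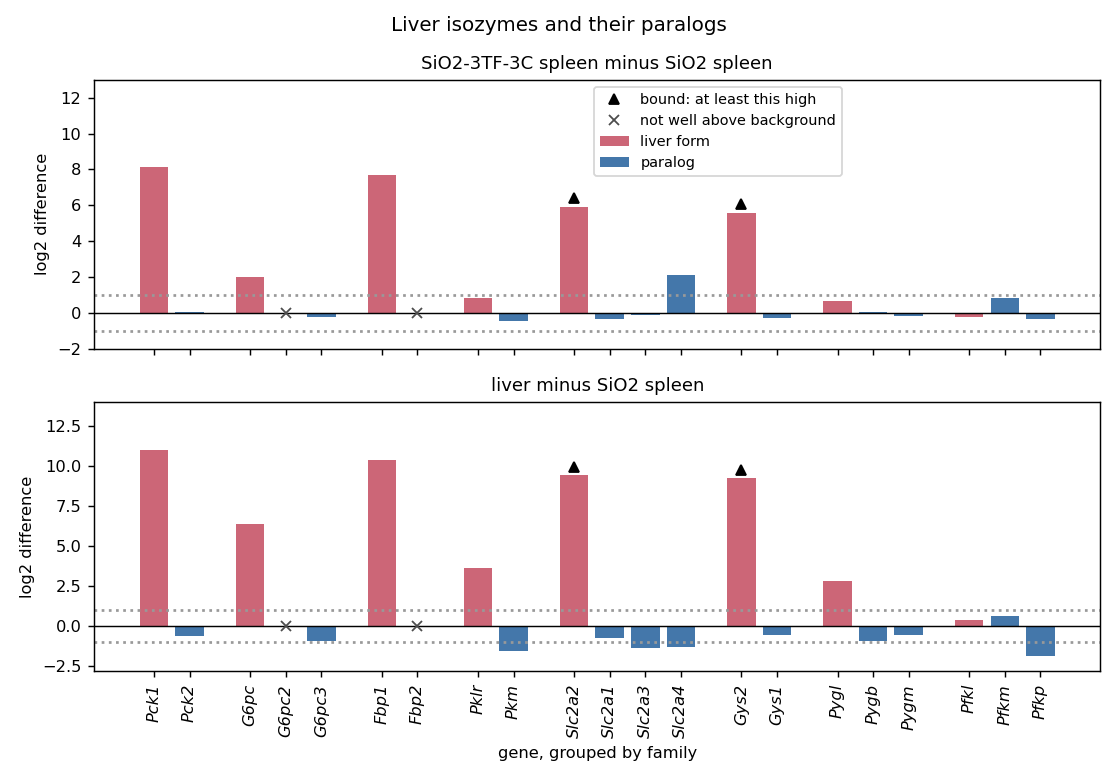
Log2 difference from the SiO2 spleen of the liver forms and their paralogs in the SiO2-3TF-3C spleen (upper panel) and in liver (lower panel), 1 array each. Triangles mark lower bounds, crosses mark genes not well above background, and dotted lines mark 2-fold. Among the paralogs only Slc2a4 passes 2-fold in the upper panel, at 2.14.

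Other genes of the pathway were read from lists. Over all measured genes, 5.24% were at least 2-fold higher with 3TF-3C, and in liver 15.4% were higher and 17% lower. Of 22 other gluconeogenesis genes 20 were measured in the spleen samples, 7 were 2-fold or more higher with 3TF-3C, none was that much lower, and the median was 0.31, against 13 of 20 and 2.34 in liver. The largest were Sds, the serine dehydratase that feeds pyruvate from serine (3.49, and 7.03 in liver), Gpt2, an alanine aminotransferase (2.89 and 5.77), and the glycerol channel Aqp9 (at least 2.20 and at least 5.22). The lactate dehydrogenase Ldha differed by 0.06. Of 25 measured glycolysis genes 3 were at least 2-fold higher, among them the fructose pathway gene Tkfc (1.49). The median was -0.01, and Gpi1 and Gapdh differed by -0.01 each. In liver 12 of 26 were higher and 5 lower.

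Of 20 measured genes of glycogen metabolism other than Gys2 and Pygl, 1 was at least 2-fold higher with 3TF-3C and none was that much lower, with a median of 0.02. That gene was Ppp1r3c, which targets a protein phosphatase to glycogen (2.21, and 5.59 in liver). Ppp1r3b, the corresponding targeting subunit of liver, differed by -0.02, although liver was 1.65 higher. The glycogen-binding Stbd1 and the phosphorylase kinase subunits Phka1 and Phkg2 differed by -0.42, -0.40 and -0.01. In liver 6 of the 20 were higher and 2 lower. Of 8 measured glucose transporters other than Slc2a2, 2 were higher with 3TF-3C, Slc2a4 and the sodium-coupled Slc5a2 (1.16), with a median of 0.08. Slc2a6, Slc2a8 and Slc2a9 differed by 0.07, 0.10 and -0.39. In liver 3 were higher and 3 lower.

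Of 23 measured regulators of these genes 8 were at least 2-fold higher with 3TF-3C, none was that much lower, and the median was 0.31. In liver 16 of 24 were higher and 1 lower, with a median of 2.20. Hnf4a, the nuclear receptor that drives many hepatocyte genes, read -5.88 in the SiO2 spleen, 2.49 in the SiO2-3TF-3C spleen and 5.68 in liver. Its differences from the SiO2 spleen (8.37 and 11.56) were of about the size of those of Pck1. Both genes lay close to the lowest level called well above background in the SiO2 spleen, -6.04, which limits how well these sizes are known. The forkhead gene Foxa2 differed by at least 4.12 with 3TF-3C, and the fatty acid sensor gene Ppara read -4.14, -0.14 and 4.14 in the same order. Ppargc1a, a coactivator of gluconeogenic genes in fasting, differed by -0.02 between the spleen samples and was 2.13 higher in liver. The insulin signalling adaptor gene Irs2 differed by 0.21 and 1.44.

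**Figure D4:**
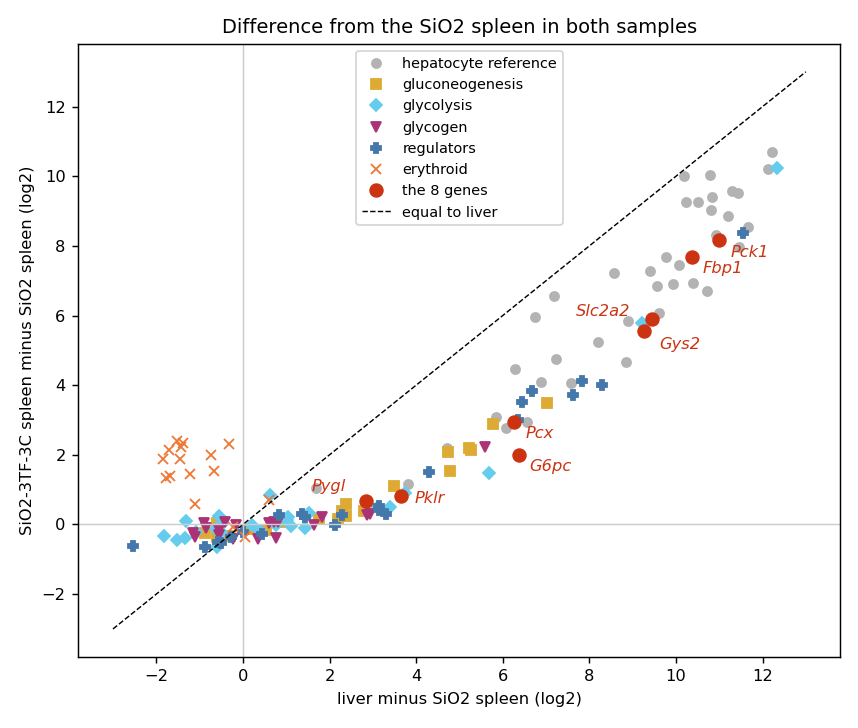
Log2 difference from the SiO2 spleen in liver (x axis) and in the SiO2-3TF-3C spleen (y axis) for the 8 genes and the gene lists around them; both axes share the SiO2 spleen array, and genes at a bound are drawn at the bound. All 8 genes lie below the dashed line of equal difference, and G6pc (6.37, 2.01) lies below Pcx (6.27, 2.95).

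Kidney tubule, islet, fat and gut also express some of the 8 genes, and markers of each were read. Of 11 proximal tubule genes 7, 7 and 8 were well above background in the 3 samples, given here and next from the SiO2 spleen through the SiO2-3TF-3C spleen to liver, and their summed level was 96.3%, 88.2% and 74.7% of the 75th percentile, or 44.9%, 47.3% and 54.2% without Cubn. The transporters Slc5a12, Slc22a8 and Slc7a13 were well above background on no array. Between the spleen samples 2 of 7 were at least 2-fold higher, Slc5a2 (1.16) and the cadherin gene Cdh16 (1.51), and the median was -0.38. Slc34a1, Cubn and Umod differed by -0.38, -0.33 and -0.60. Of 10 islet genes 0 of the 6 measured passed 2-fold in either direction. Their median was -0.17, their summed level was 49.7%, 42.6% and 69.1% in the same order, and Gcg, Iapp, Nkx6-1 and Slc30a8 were well above background on no array. The hormone genes Ins1, Ins2 and Sst and the genes Chga and Ucn3 differed by -0.06, -0.34, -0.17, -0.35 and 0.37.

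Of 11 adipocyte genes 10 were measured in the spleen samples and 1 passed 2-fold, the adrenergic receptor gene Adrb3 (1.54, and 4.90 in liver). The median was -0.15, Adipoq, Lipe, Retn and Fabp4 differed by -0.13, -0.06, -0.59 and -0.72, and Lep was well above background on no array. The summed level was 758%, 505% and 499%, or 143%, 131% and 211% without Fabp4. Of 8 enterocyte genes with a probe 5 were measured and 1 passed 2-fold, the fatty acid binding gene Fabp2 (3.08, and 6.37 in liver). The median was 0.28, Lgr5, Lct, Cdx1 and Sis differed by 0.28, 0.36, -0.28 and -0.96, and the brush border genes Vil1 and Alpi were well above background on no array. The summed level was 27.2%, 79.9% and 678%, and without Fabp2 it was 20.0%, 19.0% and 80.7%. By the same reading, 39 of 40 hepatocyte genes were higher by 2-fold or more with 3TF-3C, with a median of 6.88 and a summed level of 10367%, 69364% and 195370%, or 3609%, 63003% and 188037% without Slc10a1. Fgg and Ttr were higher by at least 10.69 and at least 10.21, Ahsg by 10.04 and Trf by 1.05. The exception, Slc10a1 (-0.09), read 6.08, 5.99 and 6.20. It had 2 probes, and these values are those of the brighter probe alone. The part of these cell types in the values of the 8 genes was not tested.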

How the data were processed

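RNA from pooled SiO2 spleens, pooled SiO2-3TF-3C spleens and liver was measured on 3 arrays. A blood RNA kit, globin depletion and linear amplification into Cy3 cRNA were used, per the labels' protocols. Each deposited scanner file holds linear intensity per spot after background subtraction. Per the file headers Feature Extraction 11.0.1.1 was used, on array design 026655 (mm9), whereas the submitters' processing notes give Agilent Feature Extraction 9.1. The arrays shared a slide and a scan. The authors' deposited series table holds log2 values of 26049 probes (column medians 5.91, 5.91 and 5.91), shown to be log2 by its correlation with each array (r at least 0.993). Its normalization and filter are not given in the sources used here. All 3 columns share a maximum of 16.58, as columns do after quantile normalization. As an alternative it may therefore not be separate from quantile scaling.

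Control and outlier-flagged spots (182, 283 and 469 of 43020) were left out, spots of a probe were averaged, and log2 processed signals were taken relative to the 75th percentile (569, 515 and 390). Symbols came from the RefSeq accession of each probe for 27038 of 39112 probes (69.1%). A gene took its brightest probe. For a bound, the dim side took the lowest signal that was well above background on its array, or its own signal where higher (-6.04, -6.19 and -5.57). Spots of replicated probes varied by a median SD of 0.0752, 0.0775 and 0.0979 log2. Each probe of the 8 genes had only 1 spot in use per array, so this SD was not measured on them. Precision is also limited by the number of arrays. The differences were checked on simulated data with known changes in brighter probes, which did not test the bounds. Alternatives were normexp correction (limma 3.58.1, offset 50), quantile, median and housekeeping scaling, the deposited table, the mean over probes, 2 filters on dim genes and kept outlier flags. normexp was run on the median spot signal because the files hold no mean signal. Its offset of 50 is added to every signal, which by itself makes the differences of dim genes smaller. The normexp values therefore do not separate the background correction from the offset.

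Some genes of the glycolysis list are not reported here by name. All 8 genes and their paralogs are named. Of most other lists, the genes with the 3 largest and 2 smallest differences between the spleen samples are named. The B and T cell, skeletal muscle and housekeeping lists are given as counts and medians only. Of the macrophage and neutrophil list only Ltf is named with a value. Vil1, Alpi, Lep and the other markers said to be well above background on no array are named as undetected. The genes, lists and this naming rule were chosen with earlier results of these data known. Cd68, Ly6g, Muc2 and Polr2a had no matching probe, and Creb3l3 gave no gene value. Of 10 skeletal muscle genes 9 were measured in the spleen samples and 4 were at least 2-fold lower with 3TF-3C (median -0.63). Of 14 housekeeping genes 2 were at least 2-fold higher (median -0.14).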

Additional observations from a re-analysis of the deposited data

How the results depend on the processing

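No paired analysis was possible because each group has 1 array, and for the same reason no replicate could be left out. The counts of 6, 8 and 8 genes were the same under normexp, quantile, median and housekeeping scaling, the mean over probes, no filter and kept outlier flags. Over the 7 genes listed in the deposited table, which lists no G6pc, they were 5, 7 and 7, and over the 6 genes measured on each of the 3 arrays 4, 6 and 6. The Pck1 difference from liver was -2.57 with the deposited table and -2.59 with quantile normalization, within a range of -2.95 to -2.57. With normexp correction the G6pc difference from liver was -4.04 and its gap to Pck1 -1.22, within ranges of -4.47 to -4.04 and -1.61 to -1.22. Of 190 other log2 differences 162 moved by no more than a technical error and 28 moved further. Many of the 162 could not move. The mean over probes can change only Gys2, and the 2 filters leave genes measured on all 3 arrays as they are. Median and housekeeping scaling shift all genes of an array equally, so the gap stayed at -1.52. For Slc2a2 and Gys2 over the SiO2 spleen the technical error was as large as 1.44 and 1.45. Of 69 values of the increase as a percentage of the liver increase 59 moved by no more than a technical error and 10 further, for example Pygl to 13.8%, Fbp1 to 19.5% and Pck1 to 16.8% with the deposited table. No value changed sign (0 of either kind). G6pc was farthest from liver under every alternative that holds it, and Pygl nearest under all but normexp, where Pklr was. The median of all genes, liver minus SiO2 spleen, ranged from -0.22 to 0.07. Signals of Pck1, Slc2a2 and Gys2 near background in the SiO2 spleen limit how well their fold over it is known.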

Other observations

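Genes that respond to fasting and to feeding in liver were read beside the glucose genes, since the feeding state of the mice is not given. Of 11 measured fasting-responsive genes 4 were higher by 2-fold or more with 3TF-3C than in the SiO2 spleen, none was that much lower, and the median difference was 0.21; in liver all 11 were higher, with a median of 3.24. Igfbp1, an insulin-repressed secreted binding protein, was higher by at least 7.86, the fatty acid hydroxylase gene Cyp4a14 by 3.68 and the tyrosine aminotransferase gene Tat by 2.76. Pdk4, a kinase that shuts off pyruvate dehydrogenase, differed by 0.05 between the spleen samples although it was 3.24 higher in liver.

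Of 11 measured feeding-responsive genes 3 were at least 2-fold higher with 3TF-3C, none was that much lower, and the median was 0.63; in liver 11 of 12 were higher, with a median of 3.48. Thrsp, a lipogenic gene, was higher by 4.44, Mlxipl, which encodes the glucose-sensing factor ChREBP, by 3.84 and the lipid droplet gene Pnpla3 by 1.03. Acly and Acaca, at the start of fatty acid synthesis, differed by -0.28 and 0.09. The cause of these differences was not tested.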
